A study of Mus musculus with 35 samples.

Results

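Colons of formerly germ-free mice that had received wild-type flora 3 weeks before dextran sulfate sodium (DSS) were compared with colons of conventional wild-type mice. All of them had colitis caused by DSS. The question was how closely a colon colonised 3 weeks before DSS matches a conventional colon in this colitis. The comparison took 10 of the 35 mice of the series, chosen by their titles, with 5 mice and 5 arrays in each group. It covered 19908 genes on Affymetrix Mouse Gene 1.0 ST arrays, each gene read by 1 probe set, and levels are given as log2 signal, so that a difference of 1 is 2-fold.

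The conventional mice were wild-type C57BL/6N animals that drank 3% DSS for 5 days and then plain water. The recipients were axenic (germ-free) C57BL/6N mice that received flora of wild-type donors by fecal transplantation 3 weeks ahead of the same DSS course. Colons of both were taken at day 12 of treatment. One characteristic in the labels gives the conventional mice a transfer of wild-type microbes as well, while the protocol and the titles set them apart from the axenic mice, and the titles were followed. Other groups serve as reference levels or as a parallel. Untreated conventional wild-type mice drank water only, and axenic controls received DSS ahead of a microbial transfer, so that their flora at sampling is not stated in the sources used here. The parallel used conventional Reg3a-transgenic mice given DSS and axenic mice given DSS after flora of transgenic donors, again 5 of each. Mice are called by the end of their array titles, WT65 to WT52 for the conventional mice and WT880 to WT098 for the recipients. The promoter of the transgene, the age and sex of the mice, their cages, litters and breeding colonies and the array batches are not stated in the sources used here. Germ-free rearing, the transplant and any difference in colony or housing therefore cannot be told apart. The p-values measure the spread between these mice, which the labels do not place in separate cages or litters.

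DSS strips the mucus and epithelium of the colon, so that bacteria reach the tissue, neutrophils and monocytes enter, and surviving epithelial cells spread over the wounds. Germ-free animals grow up with a thin lymphoid tissue, few IgA plasma cells and low levels of epithelial genes that respond to microbes, such as the Reg3 lectins and the oxidase Duox2. Flora introduced in adult life is known to induce many of these genes. How far a colon then resembles one colonised from birth in the same injury is read here gene by gene.

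Epithelial markers stood high in all 10 colons: Epcam read from 11.57 to 12.19, Krt8 from 13.12 to 13.75 and Muc2 from 13.42 to 14.09. Over genes the arrays correlated at 0.968 to 0.989 among the recipients, at 0.925 to 0.986 among the conventional mice and at 0.931 to 0.993 in the 25 pairs across the groups. The closest pair across the groups was recipient WT880 with conventional mouse WT53. The median SD of a gene was 0.166 in recipients and 0.268 in conventional mice. Within-array SD ranged from 1.90 to 2.03 in recipients and from 1.71 (mouse WT55) to 1.99 in conventional mice, a mean difference of 0.0854 (exact permutation test, two-sided, p = 0.159). The difference between the groups also depended on signal. Its median was -0.02 over all genes. Over the 3982 genes above the 80th percentile of signal it was 0.23, and 89.5% were above 0. Above the 40th percentile it was 0.12, with 69.1% above 0. Up to the 40th percentile it was -0.11, with 15.1% above 0. Xist, the transcript of the inactive X chromosome, read 11.19 and 10.86 in conventional mice WT53 and WT52 and from 4.79 to 5.38 in the other 8 mice. Recipient WT880 and conventional mouse WT55 stood apart in several of the gene groups described here.

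No gene passed the test between the groups. Of 19908 genes, 0 (0%) passed at adjusted p under 0.05 (limma, Benjamini-Hochberg), and the smallest adjusted p was 0.285. At an unadjusted p under 0.05 there were 1634 genes (8.21%), of which 1218 (6.12%) read higher in recipients and 416 (2.09%) lower. For 265 genes (1.33%) the 5 recipients and the 5 conventional mice did not overlap, 203 (1.02%) with the recipients above and 62 (0.311%) with the recipients below. Other settings gave 0 to 16 passing genes, with 2 exceptions. Array weights, which gave conventional mouse WT53 a weight of 12.2 and mouse WT55 one of 0.195, gave 1176 genes. Leaving out recipient WT880 gave 21, all higher in the remaining recipients, of which 15 belonged to a list of pancreatic acinar genes. Outside that list, 2210010C04Rik, Gp2, Reg3a and Reg3d passed with differences of 4.95, 4.54, 4.34 and 3.48. The remaining genes, Alg3 and Slc7a5, differed by 0.84 and 0.83.

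How far apart the groups could be is set by the intervals. The 95% interval of the difference lay within 2-fold in both directions for 18704 genes, which is 94% of all, and the median standard error was 0.142. Without the mice with high Xist, all of them conventional, the intervals of 16965 genes (85.2%) did so. Group means differed at least 2-fold in 69 genes, 65 of them higher in recipients and 4 lower. Members of the pancreatic list made up 17 of the 69. Gene lists are described by the median difference of their members, followed by its range over 14 alternative settings (normalisation, model, covariates and sets of mice, 2 of them chosen after seeing the data). Counts of members above 0 depend on signal too. They stand beside 69.1% of genes above the 40th percentile of signal, 89.5% above the 80th and 15.1% up to the 40th. Intervals are for 1 gene at a time and are not adjusted over genes, so an interval that leaves out 0 is not a call.

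**Figure D1:**
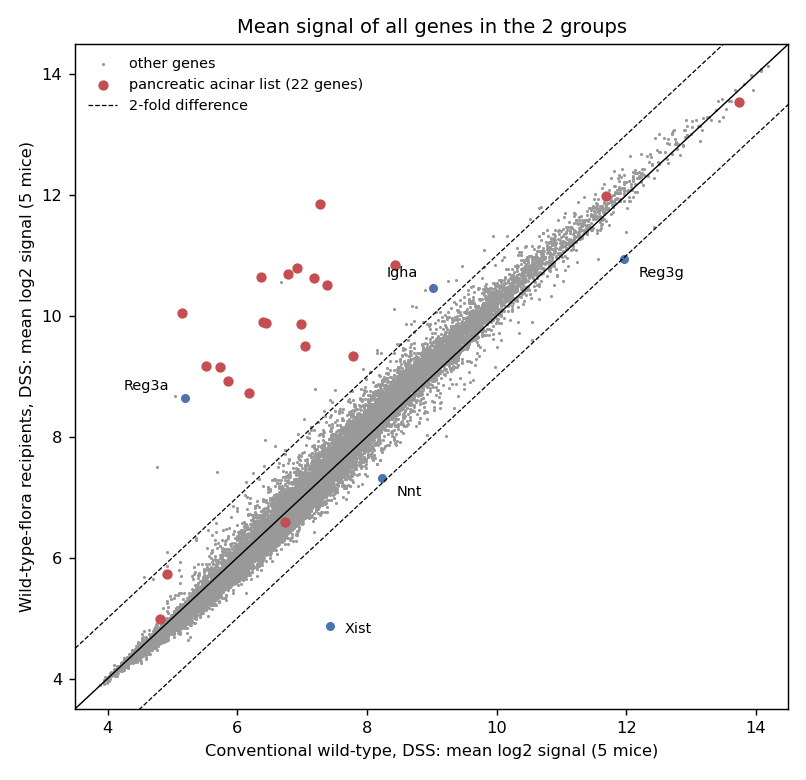
Mean log2 signal of 19908 genes in 5 recipients (vertical axis) against 5 conventional mice (horizontal axis), with the line of equality and dashed lines at a 2-fold difference. Most genes lie inside the dashed lines, while most red points of the pancreatic list, such as Cela3b at 9.88 against 6.45, lie above. Nnt, Reg3g and Xist are the labelled genes to the right of the line of equality.

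Among the groups of the series the recipients' means were closest to those of the conventional DSS mice. The root mean square difference over genes was 0.267 from conventional wild-type DSS mice, 0.309 from conventional transgenic DSS mice and 0.334 from recipients of transgenic flora. It was 0.505 from untreated wild-type mice and 0.582 from the axenic controls. Genes whose means differed at least 2-fold numbered 69 (0.347%) against conventional wild-type DSS mice and nearly as few, 81 (0.407%), against recipients of transgenic flora. They numbered 224 against conventional transgenic DSS mice, 981 against untreated wild-type mice and 1256 against the axenic controls. By the median absolute difference the order changed, with 0.131 from transgenic DSS mice and 0.154 from wild-type DSS mice. These are descriptions without a test, and the distances share the recipients. By the test, 4805 genes (24.1%) were called between recipients and untreated wild-type mice and 13401 (67.3%) between recipients and axenic controls, against 0 here. Recipients of transgenic flora gave only 67 (0.337%) against the same axenic controls. Between conventional wild-type mice with and without DSS 1022 (5.13%) were called, and 127 (0.638%) between conventional wild-type DSS mice and axenic controls. The median gene SD was 0.166 in wild-type-flora recipients, 0.245 in transgenic-flora recipients and 0.268 in conventional wild-type DSS mice. Counts of calls depend on this spread as well as on the differences, so they do not rank how close the groups are. These comparisons share mice with each other.

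Of the bactericidal proteins of the epithelium, Reg3g, Reg3b and Retnlb read far above the untreated level in most mice of both groups, and recipient WT880 was far below the others in Reg3g and Reg3b. Reg3g, a lectin that kills Gram-positive bacteria, read 12.75, 12.58, 12.29, 10.84 and 11.35 in conventional mice WT65, WT56, WT55, WT53 and WT52. In recipients WT880, WT793, WT639, WT597 and WT098 it read 7.37, 10.09, 12.72, 12.53 and 12.05. Recipients WT639, WT597 and WT098 lay within the conventional range and the other two below it, with recipient WT880 lowest. The means were 10.95 ± 2.26 and 11.96 ± 0.83 (SD, n = 5 each), a difference of -1.01 (interval -3.04 to 1.02, adjusted p = 0.611), and without recipient WT880 it was -0.12. Untreated wild-type mice read 5.38 ± 0.26 and axenic controls 5.53 ± 0.25, so even recipient WT880 lay above both reference means. Reg3b, its paralogue, had the same order of recipients, from 6.84 in recipient WT880 to 12.84 in recipient WT639, against 10.52 to 13.04 in conventional mice; without WT880 its difference of -1.03 was -0.01. Its probe set may share signal with Reg3g, since the genes are near copies.

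Retnlb, a goblet cell protein that lyses bacteria, read 10.64, 10.24, 12.43, 12.34 and 11.72 in the same recipients and 12.15 to 12.77 in the conventional mice. Recipients WT880, WT793 and WT098 lay below all conventional mice, and the mean difference was -0.95 (SE 0.40, interval -1.84 to -0.07, adjusted p = 0.567). Both reference groups were far lower, at 5.14 ± 0.42 in untreated mice and 5.53 ± 0.42 in axenic controls. Mptx1, a pentraxin of the colon epithelium, is a gene of the healthy colon here. It read 12.24 ± 0.21 in untreated mice, from 5.70 to 7.60 in conventional DSS mice, and 9.70 in recipient WT880 against 5.56 to 5.77 in the other recipients. Recipient WT880 thus kept the highest Mptx1 beside the lowest Reg3b and Reg3g of the 10 mice. Pla2g2a, a secreted phospholipase that kills bacteria, spanned 9.10 to 10.75 in recipients and 6.34 to 9.88 in conventional mice, a difference of 1.27 (interval -0.03 to 2.57) that was 0.70 without WT56. Ang4, a bactericidal ribonuclease, read 5.99 ± 0.45 and 6.41 ± 0.43, and 6.36 ± 0.63 in untreated mice. Of 21 measured antimicrobial genes 0 passed, 9 were above 0 and 12 below, with a median difference of -0.11, against 47.5% above 0 and a median of -0.02 over all genes; the list median ranged from -0.19 to 0.05 over the settings.

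Among genes of wound epithelium, Plet1 and Clca4b read far above the untreated level in both groups. Plet1, a marker of spreading epithelium over DSS wounds, read 12.82, 13.38, 12.68, 13.07 and 13.14 in recipients and 13.09, 12.56, 12.52, 12.65 and 12.73 in conventional mice. The ranges overlapped, and the difference of 0.31 had an interval of -0.02 to 0.64, well inside 2-fold, while untreated mice read 7.32 ± 0.40 and axenic controls 7.51 ± 0.29. Clca4b read 12.68 ± 0.27 in recipients, 12.22 ± 0.77 in conventional and 6.76 ± 0.59 in untreated mice. Axenic controls varied widely in Clca4b, at 7.97 ± 1.75. Ly6d, a surface protein of squamous and regenerating epithelium, read 9.53 ± 0.45 and 8.47 ± 0.61, a difference of 1.06 (SE 0.30, interval 0.41 to 1.71, adjusted p = 0.484). Krt19, a keratin of simple epithelium, was the 1 of 22 list members whose groups did not overlap (1.33% of all genes), at 12.95 to 13.26 against 12.49 to 12.93. Of these 22 genes 19 were above 0, the median difference was 0.33 (0.07 to 0.41), and 12 (54.5%) had intervals within 2-fold, against 94% of all genes.

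The oxidases that generate hydrogen peroxide and superoxide at the epithelial surface were on in both groups. Duox2 read 10.71 ± 0.18 in recipients and 10.62 ± 0.67 in conventional mice, a difference of 0.10 (interval -0.50 to 0.70), and the sign turned after quantile normalization (-0.16). The axenic controls read 7.41 ± 0.64 and untreated mice 8.18 ± 0.40, both far below. Duoxa2, the factor that brings Duox2 to the membrane, read 10.51 to 10.74 in recipients and 9.82 to 10.43 in conventional mice without overlap, a difference of 0.41 (SE 0.13, adjusted p = 0.521). Nox1, the superoxide-generating oxidase of the colon, read 10.48, 10.25, 9.37, 10.29 and 10.29 in recipients and 10.25, 7.18, 7.72, 9.20 and 9.45 in conventional mice. Conventional mice WT56 and WT55 were the low ones, and the difference of 1.38 (interval 0.24 to 2.52) became 0.50 without them. Nos2, the inducible nitric oxide synthase, had 1 low mouse as well, conventional WT56 at 7.46 against 9.90 to 10.52 in the others, while recipients read 9.76 to 11.27; the difference of 0.87 was 0.33 without it. Fut2, which adds the fucose that gut bacteria feed on, read 12.15 ± 0.12 and 11.82 ± 0.19, and 10.25 ± 0.20 in axenic controls. Socs3, an inhibitor of cytokine signalling through Stat3, read 9.73 ± 0.81 and 8.73 ± 0.62. Of the 16 genes in this list 15 (93.8%) were above 0 with a median of 0.37 (0.03 to 0.53), lowest without conventional mice WT55 and WT56. Over genes above the 80th percentile of signal 89.5% were above 0, with a median of 0.23.

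**Figure D2:**
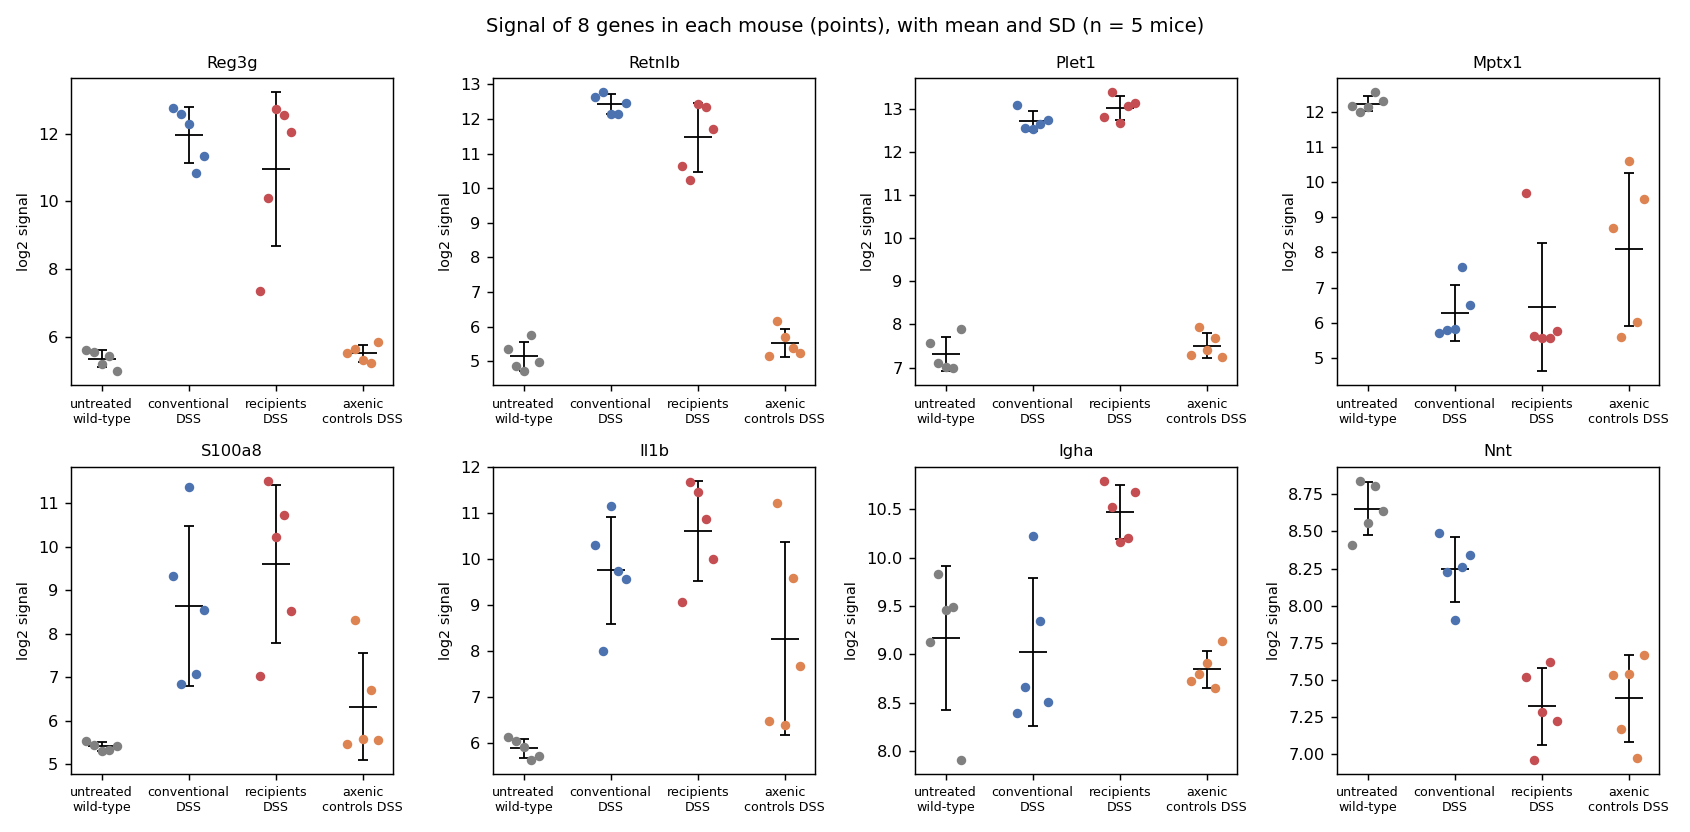
Log2 signal of 8 genes in each mouse (points) of 4 groups, with the mean and SD of 5 mice. Reg3g, Retnlb and Plet1 stand near the conventional DSS level in most recipients and near 5 to 8 in untreated mice and axenic controls, S100a8 and Il1b scatter within both DSS groups, and Nnt separates all recipients (at most 7.62) from all conventional mice (at least 7.90).

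Genes of acute inflammation varied widely between mice of the same group. S100a8, a subunit of the neutrophil protein calprotectin, read 7.02, 11.51, 10.22, 10.73 and 8.53 in recipients WT880, WT793, WT639, WT597 and WT098. Conventional mice WT65, WT56, WT55, WT53 and WT52 read 9.33, 6.85, 11.37, 7.07 and 8.54. Each group thus held mice near 7 and mice above 11, and the mean difference of 0.97 had an interval of -1.21 to 3.15; it was 0.49 without WT793 and 1.66 without WT55. Saa3, an acute phase protein, read 8.69, 12.54, 12.54, 12.35 and 9.71 against 11.47, 9.39, 12.70, 9.70 and 11.01. Lcn2, which withholds iron from bacteria, read 8.78, 12.94, 12.27, 12.30 and 9.83 against 11.11, 9.85, 12.78, 9.81 and 10.65. In Saa3, Lcn2 and S100a8 alike recipients WT880 and WT098 were the lowest recipients, and conventional mouse WT55 was the highest of its group. Their intervals reached from -1.61 to 2.23 for Saa3 and from -1.45 to 2.22 for Lcn2, so 5 mice per group leave a wide range of differences in both directions. The signs of Saa3 and Lcn2 turned when the mice with high Xist were left out (-0.02 for both).

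Cytokines differed in how much they varied within a group. Il1b, a cytokine of activated myeloid cells, read 10.62 ± 1.08 in recipients, 9.77 ± 1.16 in conventional mice, 8.28 ± 2.10 in axenic controls and 5.89 ± 0.20 in untreated mice; the difference of 0.86 was 0.42 without WT56. Tnf read 7.13 ± 0.36 and 7.09 ± 0.43, and its interval of -0.44 to 0.54 lay within 2-fold; the sign turned with within-array SD as a covariate (-0.16). Il6 was at background in most mice and read 8.45, 7.51 and 6.07 in recipients WT793, WT597 and WT098 and 7.63 in conventional mouse WT55. The other 6 mice read between 4.41 and 5.04. Il17a read 6.13 ± 0.22 and 6.14 ± 0.22, and Ifng 6.68 ± 0.62 and 6.32 ± 0.22, both near the level of untreated mice (6.07 ± 0.10 and 6.18 ± 0.16). Ptgs2, the inducible cyclooxygenase, read 11.09 ± 0.92 and 9.81 ± 1.30. The chemokine Cxcl2, which draws neutrophils, read 6.68, 10.47, 9.87, 9.37 and 7.58 in recipients and 7.53, 5.57, 9.15, 7.06 and 6.69 in conventional mice, a difference of 1.60 (SE 0.79, interval -0.15 to 3.34, adjusted p = 0.567). Recipients WT880 and WT098 were again the low recipients, and mouse WT55 again the high conventional one.

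As lists, 16 of 19 neutrophil genes were above 0 (median 0.64, -0.35 to 1.14) and 14 of 20 acute phase and complement genes (median 0.27, -0.20 to 0.39). So were 18 of 28 chemokines (median 0.27, -0.18 to 0.29) and 15 of 30 cytokines (median 0.01, -0.25 to 0.09). Only 5 of the 19 neutrophil genes (26.3%) had an interval within 2-fold, against 94% of all genes. The mean level of the neutrophil list ran from 6.73 (recipient WT880) to 9.22 (recipient WT793) in recipients and from 6.52 (mouse WT56) to 8.68 (mouse WT55) in conventional mice. Untreated mice ran from 5.99 to 6.32. Among the list's members Itgam, an integrin of neutrophils and macrophages, read 8.32 ± 1.17 and 7.43 ± 0.75, and Il1r2, a decoy receptor, 7.71 ± 1.25 and 6.74 ± 0.99; without WT793 the differences of 0.89 and 0.96 were 0.52 and 0.50. In a whole piece of colon, more cells of a type and more RNA per cell cannot be told apart. With the level of the pancreatic list as a covariate, an alternative chosen after seeing the data, the medians of the neutrophil, acute phase, chemokine, cytokine and matrix lists turned to -0.35, -0.20, -0.18, -0.25 and -0.17. That level nearly follows the group, at 9.70 to 10.69 in recipients other than WT880 and 6.53 to 8.45 in conventional mice. With it the median standard error rose from 0.142 to 0.226, and intervals within 2-fold fell from 94% to 74.1% of genes. The covariate and the group are thus hard to tell apart, and a part of pancreatic content in these lists was not tested. Macrophage and dendritic cell genes had 13 of 20 above 0 (median 0.12, 0.01 to 0.22), and interferon-stimulated genes 13 of 26 (median -0.01, -0.32 to 0.32).

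Genes of immunoglobulin A and antigen presentation read higher on average in recipients, and none of them passed. Igha, the constant region of IgA, read 10.79, 10.52, 10.16, 10.20 and 10.68 in recipients WT880, WT793, WT639, WT597 and WT098. Conventional mice read 8.39, 8.66, 10.22, 9.34 and 8.51. Conventional mice WT65, WT56, WT53 and WT52 lay below the lowest recipient, and mouse WT55 lay inside the recipients' range. The difference was 1.45 (SE 0.32, interval 0.74 to 2.15, 2.72-fold, adjusted p = 0.43). Axenic controls read 8.84 ± 0.19 and untreated conventional mice 9.16 ± 0.74, so that the recipients, colonised 3 weeks before DSS, read above both. Recipients of transgenic flora read 11.46 ± 0.79.

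Jchain, the chain that joins IgA into dimers, was picked after its values were seen, as the list member with the highest difference. It read from 9.66 to 11.02 in recipients and 9.32, 7.19, 7.41, 10.41 and 10.20 in conventional mice, with mice WT56 and WT55 low, and 6.45 ± 0.28 in axenic controls. Its difference of 1.52 (interval 0.15 to 2.90) was 0.45 without mice WT55 and WT56. Pou2af1, a coactivator of antibody-secreting cells, read 8.63 ± 0.42 and 7.73 ± 0.69, Irf4, a plasma cell transcription factor, 6.57 ± 0.20 and 6.07 ± 0.34, and Derl3, of the plasma cell secretory apparatus, 7.42 ± 0.10 and 6.99 ± 0.26. Derl3 belongs to pancreatic acinar tissue as well as to plasma cells. Of 23 B and plasma cell genes 20 were above 0, 0 passed, and the median was 0.39 (-0.05 to 0.67), lowest with array weights.

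All 10 genes of MHC class II presentation were above 0 in recipients, with 0 passing and a median of 0.85. H2-DMa, which loads peptides, read 8.89, 10.19, 8.56, 9.04 and 8.90 in recipients and 7.64, 7.14, 7.87, 8.61 and 8.43 in conventional mice, a difference of 1.18 (SE 0.34, adjusted p = 0.49). One recipient, WT639, lay below the highest conventional mouse. Cd74, the invariant chain, read 11.78 ± 0.39 and 10.65 ± 0.98, H2-Ab1 11.32 ± 0.47 and 10.16 ± 1.07, and H2-Aa 11.61 ± 0.45 and 10.51 ± 1.01. In all 3 the lowest value, from 8.54 to 9.12, was in conventional mouse WT56, without which the differences of 1.13, 1.16 and 1.1 were 0.75, 0.75 and 0.68. The list median ranged from 0.04 to 1.38, lowest with array weights, and was 0.47 without mice WT55 and WT56. T and NK cell genes had 24 of 26 intervals within 2-fold, 92.3% against 94% of all genes, and a median of 0.05 (0.01 to 0.15). The list was dim, with mean levels of 6.01 to 6.54 in recipients and 5.92 to 6.24 in conventional mice. The median signal of these arrays was 6.79 to 6.91. RMA compresses fold changes of dim genes, so the share does not show equal T and NK cell content. Foxp3, the factor of regulatory T cells, read 6.13 ± 0.10 and 6.38 ± 0.23. Type 17 and type 3 lymphoid genes had 6 of 14 above 0 (median 0.00, -0.07 to 0.05). MHC class I processing had 11 of 12 (91.7%) above 0 (median 0.26, -0.08 to 0.54), and its median turned below 0 without WT55 and WT56. That share and median are near the 89.5% and 0.23 of genes above the 80th percentile of signal. Lymph node stroma had 7 of 10 above 0 (median 0.24, -0.22 to 0.31), and turned with array weights.

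Sensors of bacteria were read next. Ly96, the partner of Tlr4 in sensing lipopolysaccharide, read 8.79, 9.71, 8.17, 8.85 and 8.40 in recipients and 7.0, 6.96, 7.04, 7.76 and 8.76 in conventional mice. Only mouse WT52 of the conventional mice reached the recipients' range, and the difference was 1.28 (SE 0.38, interval 0.45 to 2.11, adjusted p = 0.496). Untreated mice and axenic controls read 7.55 ± 0.78 and 7.53 ± 0.54, like most conventional DSS mice. Myd88, the adaptor of most Toll-like receptors, read 9.58 to 10.14 in recipients and 8.90 to 9.57 in conventional mice, without overlap, a difference of 0.47 (SE 0.15, adjusted p = 0.534). Ticam1, the other adaptor, read 8.13 ± 0.20 and 7.79 ± 0.11, and Nfkbiz, an inducible co-factor of NF-kappa-B, 9.23 ± 0.31 and 8.79 ± 0.30. Of 27 genes of this list 22 (81.5%) were above 0 with a median of 0.26 (0.04 to 0.35). The share above 0 was 69.1% over genes above the 40th percentile of signal (median 0.12) and 89.5% above the 80th (median 0.23). Myd88 was the 1 of 27 whose groups did not overlap, against 1.33% of all genes.

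**Figure D3:**
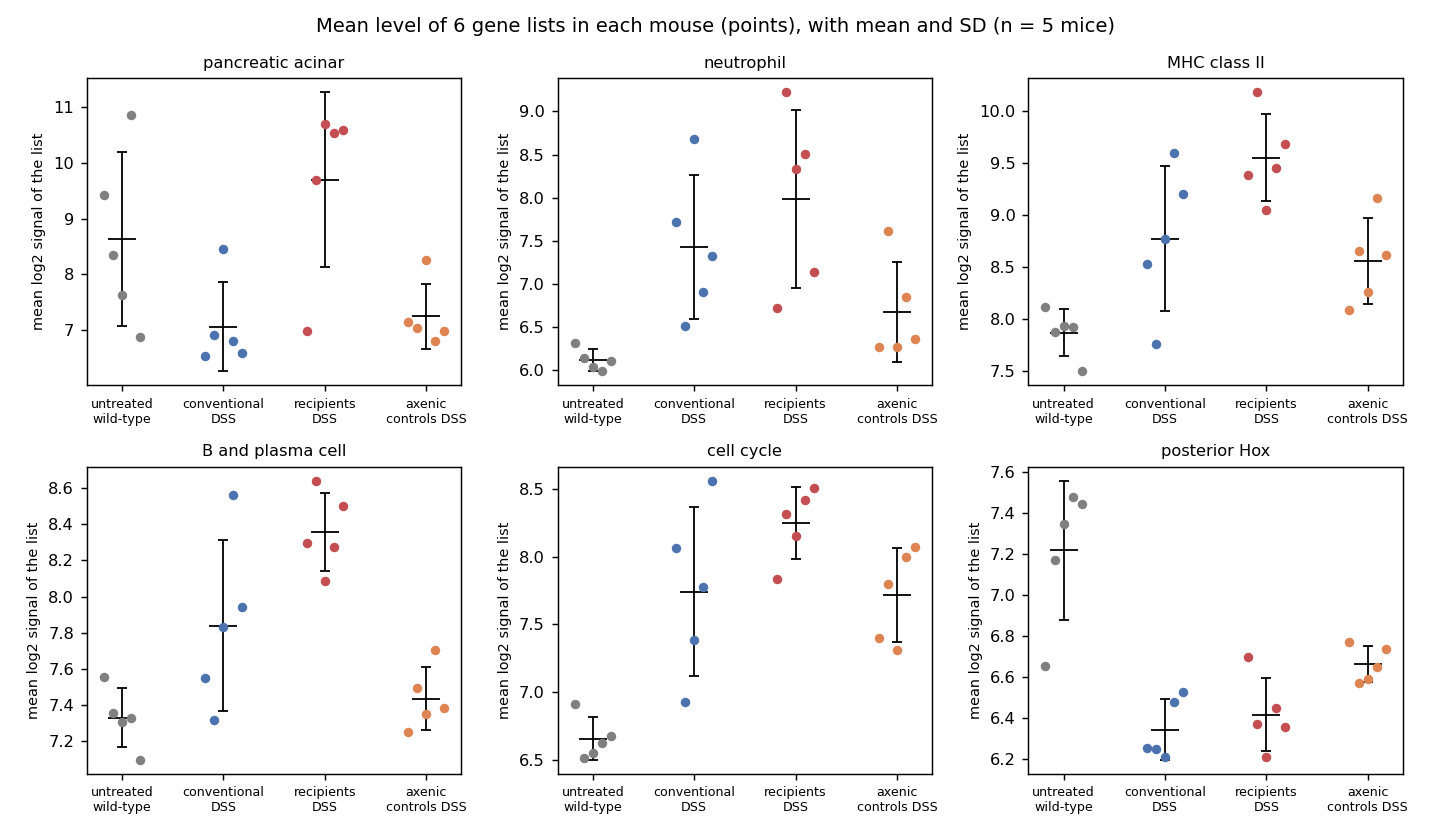
Mean log2 signal of 6 gene lists in each mouse (points) of 4 groups, with the mean and SD of 5 mice. Recipients other than WT880 stand between 9.70 and 10.69 in pancreatic genes and WT880 is at 6.99; the MHC class II, B and plasma cell and cell cycle levels of recipients are less spread than those of conventional mice, and the neutrophil levels of both overlap.

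Among the 20 crypt stem and Wnt target genes 3, Myc, Ephb3 and Axin2, had groups that did not overlap, recipients above (1.02% of all genes). Myc, a driver of crypt proliferation, read 9.13, 9.57, 9.18, 9.65 and 9.41 in recipients and 8.60, 7.90, 8.05, 8.69 and 8.79 in conventional mice. All recipients lay above all conventional mice, and the difference was 0.98 (SE 0.19, interval 0.56 to 1.40, 1.97-fold, adjusted p = 0.418). Untreated mice read 8.65 ± 0.24, between the groups. Ephb3, a receptor that keeps crypt cells in place, read 7.19 to 7.91 against 6.75 to 7.15, a difference of 0.55 (SE 0.14, adjusted p = 0.472). Sox9, a factor of crypt progenitors, read 9.42 ± 0.41 and 8.67 ± 0.34, Cdca7 9.22 ± 0.10 and 8.62 ± 0.40, and Lgr5, the marker of crypt base stem cells, 6.70 ± 0.40 and 6.16 ± 0.16. Untreated mice read 9.30 ± 0.31 for Sox9 and 7.17 ± 0.32 for Lgr5, so recipients lay nearer to them in both. Of 20 genes 14 were above 0 and the median was 0.22 (0.07 to 0.36); 9 of the 20 (45%) had an unadjusted p under 0.05, against 8.21% of all genes.

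All 31 cell cycle genes were above 0, with a median of 0.52 (0.11 to 0.80). Mcm5, of the replication helicase, read 8.84 ± 0.19 in recipients and 8.12 ± 0.50 in conventional mice, and Aurkb, a mitotic kinase, 9.29 ± 0.20 and 8.51 ± 0.73. The list's mean level ran from 7.84 to 8.51 in recipients and from 6.93 (mouse WT56) to 8.56 (mouse WT52) in conventional mice, so the highest level of all was in a conventional mouse. The median was 0.11 without mice WT55 and WT56 and 0.15 with within-array SD as a covariate.

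Differentiated epithelium showed smaller differences. Muc2, the main mucin, read 13.42 to 13.88 in recipients and 13.74 to 14.09 in conventional mice, a difference of -0.21 (interval -0.45 to 0.04). Zg16, a goblet cell lectin that binds Gram-positive bacteria, read 13.54 ± 0.09 and 13.74 ± 0.12. Fer1l6 read 7.22 ± 0.42 and 7.93 ± 0.79, and Sst, the hormone somatostatin, 8.31 ± 0.17 and 8.82 ± 0.35. Of 22 goblet cell genes 15 were below 0, with a median of -0.20 (-0.27 to 0.08) that turned above 0 with the pancreas covariate. Of 21 enteroendocrine and tuft cell genes 17 were below 0, with a median of -0.13 (-0.18 to -0.02). The share above 0 was 19% in this list and 15.1% over genes up to the 40th percentile of signal.

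Slc26a3, the chloride and bicarbonate exchanger of surface colonocytes, read 11.51, 10.98, 11.14, 11.21 and 11.48 in recipients and 11.62, 11.58, 9.98, 11.16 and 11.30 in conventional mice. Mouse WT55 stood alone, and the difference of 0.14 (interval -0.48 to 0.75) turned to -0.15 without it. Aqp8, a water channel of the colon surface, read 12.19 in recipient WT880, close to the untreated level of 11.97 ± 0.30, and 8.80 to 10.84 in the other recipients. Conventional mice read from 8.05 (mouse WT55) to 11.15 (mouse WT65), and the difference of 0.69 was 0.24 without WT55 and turned to -0.20 without WT55 and WT56. Car4, a carbonic anhydrase of the surface, read 13.01 ± 0.17 and 12.70 ± 0.52. The 41 absorptive genes had a median of 0.09 (-0.12 to 0.47), and 29 of the 41 (70.7%) had intervals within 2-fold, against 94% of all genes.

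Among tight junction genes Cldn2, a pore-forming claudin, read 8.31 to 8.80 in recipients and 7.27 to 8.45 in conventional mice, a difference of 0.70 (SE 0.20, interval 0.25 to 1.15, adjusted p = 0.49). Cldn3, a sealing claudin, read 11.16 ± 0.17 and 10.65 ± 0.53, and its difference of 0.51 was 0.32 without WT55. The list's median was 0.13 (-0.20 to 0.35). In the matrix, Thbs1 read 11.81 ± 0.55 and 10.68 ± 0.96 and Fn1 12.28 ± 0.29 and 11.77 ± 0.38, with 28 of 35 genes above 0 and a median of 0.31 (-0.17 to 0.56).

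**Figure D4:**
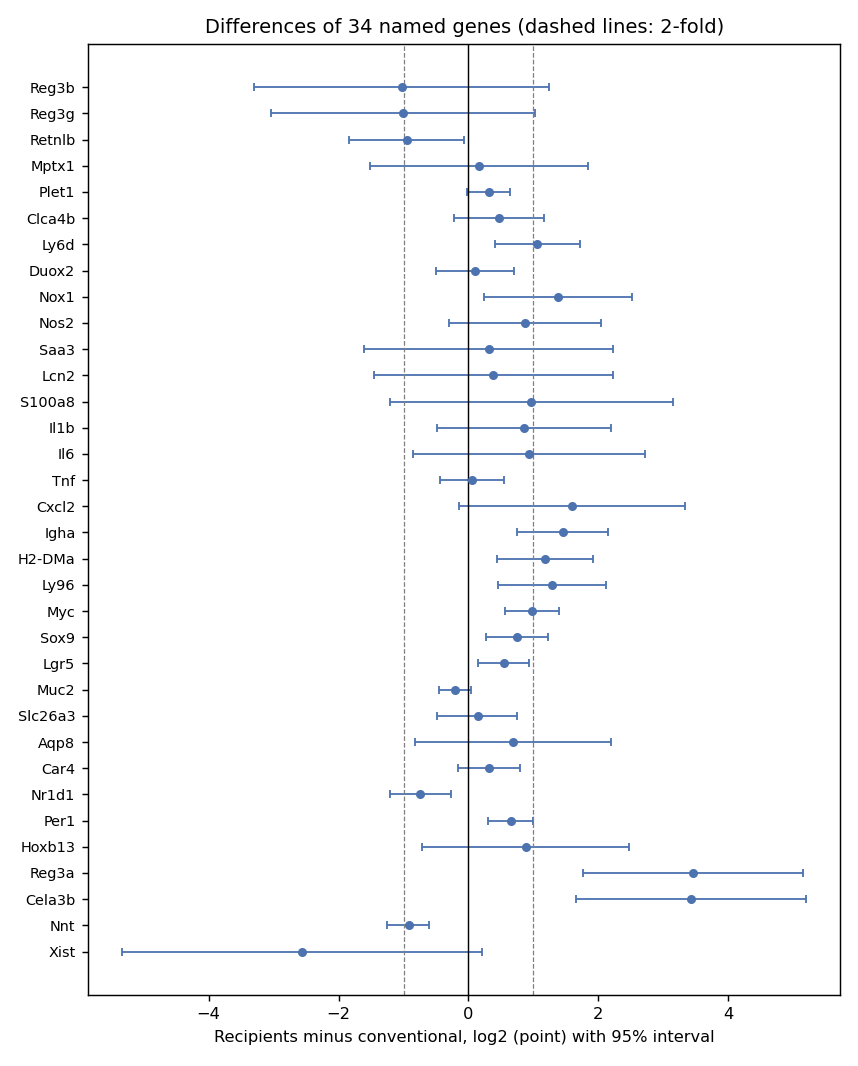
Difference of recipients minus conventional mice (log2, points) with its 95% interval for 34 named genes, 5 mice per group, and dashed lines at 2-fold. The intervals of Saa3, Lcn2, S100a8 and Reg3b are several log2 units wide, those of Plet1, Tnf and Muc2 lie within 2-fold, and those of Myc, Igha, Nnt and Reg3a leave out 0 although none passed at adjusted p under 0.05.

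Metabolic genes of the sterol pathway were above 0 in 19 of 19 cases, with a median of 0.41. For genes above the 80th percentile of signal the share above 0 was 89.5% and the median 0.23. Nsdhl, an enzyme of cholesterol synthesis, read 10.01 to 10.37 in recipients and 8.80 to 9.98 in conventional mice without overlap, a difference of 0.74 (SE 0.22, adjusted p = 0.511). Srebf2, the transcription factor of the pathway, read 10.17 ± 0.13 and 9.67 ± 0.36, and Mvd, a mevalonate enzyme, 8.69 ± 0.20 and 8.23 ± 0.24. For all 3 the low mice were conventional WT56 and WT55. The list's median ranged from 0.08 to 0.65, lowest without mice WT55 and WT56. Elovl5, which elongates fatty acids, read 9.97 to 10.52 and 9.16 to 9.96.

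Detoxification genes had 32 of 56 above 0 and a median of 0.05 (-0.03 to 0.33). Gstp1, a glutathione transferase, read 11.48 to 11.75 in recipients and 10.70 to 11.24 in conventional mice, a difference of 0.60 (SE 0.12, interval 0.34 to 0.86, adjusted p = 0.423). Gstt3 read 9.22 to 9.78 and 8.47 to 9.11, also without overlap, and untreated mice read 9.75 ± 0.26 for it. Cbr2, a carbonyl reductase, read 8.95 ± 0.57 and 7.98 ± 0.53. Among chaperones, Hspb1, a small heat shock protein, read 11.21, 11.61, 11.32, 11.57 and 10.88 in recipients and 8.64, 10.23, 10.74, 9.80 and 10.27 in conventional mice, a difference of 1.38 (SE 0.33, interval 0.65 to 2.11, adjusted p = 0.472). Hspa1a read 8.05 to 9.07 against 7.39 to 7.95. Sdf2l1, of the endoplasmic reticulum, read 10.46 ± 0.08 and 9.73 ± 0.45. Of 28 chaperone genes 26 (92.9%) were above 0 with a median of 0.24 (0.05 to 0.32). Genes above the 80th percentile of signal had 89.5% above 0 and a median of 0.23, so these counts do not set chaperones apart from bright genes.

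The respiratory chain list had 34 of 35 intervals within 2-fold, 97.1% against 94% of all genes, and a median of 0.13 (-0.05 to 0.33). Ndufa8, a subunit of complex I, read 10.30 to 10.49 against 9.73 to 10.19. Angptl4, an inhibitor of lipoprotein lipase that responds to flora, read 7.84 ± 0.49 and 7.16 ± 0.56, with 7.67 ± 0.53 in axenic controls. Fabp1, a fatty acid binding protein, was low in both, at 5.04 ± 0.09 and 5.36 ± 0.15. Fatty acid synthesis had 11 of 15 genes above 0 and a median of 0.31 (0.00 to 0.49), and fatty acid oxidation 19 of 26 and 0.16 (-0.04 to 0.41). Genes of short-chain fatty acids and bile acids had 11 of 20 above 0 and a median of 0.01 (-0.06 to 0.17), and mucosal glycan synthesis 13 of 24 and 0.04 (-0.18 to 0.52).

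Clock genes lay on both sides of 0. Nr1d1, the repressor Rev-erb alpha, read 8.97, 8.29, 8.78, 8.82 and 8.53 in recipients and 9.33, 9.65, 8.67, 9.88 and 9.53 in conventional mice, a difference of -0.74 (SE 0.21, interval -1.21 to -0.27, adjusted p = 0.49). Untreated mice and axenic controls read higher still, at 10.65 ± 0.30 and 10.04 ± 0.70. Dbp, an output gene of the clock, read 7.25 ± 0.41 and 7.79 ± 0.41, and Per1 8.28 ± 0.36 and 7.63 ± 0.10, with all recipients at or above the highest conventional mouse. Per2 read 7.75 ± 0.21 and 7.58 ± 0.18, and Bhlhe40 9.44 ± 0.26 and 8.92 ± 0.29. Of 18 genes 9 (50%) had an unadjusted p under 0.05, 4 higher and 5 lower, against 8.21% of all genes (6.12% higher, 2.09% lower), and 0 passed. No source used here gives the hour of sampling.

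Genes of the exocrine pancreas, among them digestive enzymes that the colon epithelium is not known to make, gave the largest differences. Cela3b, an elastase, read 6.45, 10.08, 11.05, 10.91 and 10.92 in recipients WT880, WT793, WT639, WT597 and WT098, and 6.06, 6.03, 7.82, 6.27 and 6.08 in conventional mice. The other recipients were above all conventional mice and recipient WT880 was at the conventional level; mouse WT55 was the highest conventional mouse. The difference was 3.43 (SE 0.81, interval 1.65 to 5.20, adjusted p = 0.472), and without recipient WT880 it was 4.29 and passed (adjusted p = 0.00144). Pnliprp1, Clps and Reg3a had the same order of groups, with differences of 3.66, 2.42 and 3.45. Reg3a, a lectin made in pancreas and gut, read 5.10 in recipient WT880, 9.30 to 9.84 in the other recipients and 5.07 to 5.48 in conventional mice. Without recipient WT880 its difference was 4.34 (adjusted p = 3.5e-07). Of 22 measured pancreatic genes 20 were above 0 and the median was 3.10, which stayed between 2.82 and 3.62 in settings other than the pancreas covariate itself. The list also holds genes that are not enzymes, such as Reg1, Reg2 and Zg16, the goblet cell lectin named above. The list's mean level was 6.99 in recipient WT880 and 9.70 to 10.69 in the other recipients, 6.53 to 8.45 in conventional, 6.88 to 10.86 in untreated and 6.80 to 8.26 in axenic control mice. Whether pancreatic tissue came with these colon pieces was not tested.

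Other tissues of the colon wall were read by the share of intervals within 2-fold, which was 94% over all genes. Smooth muscle genes had 19 of 20 intervals within 2-fold (95%) and a median of 0.16 (-0.04 to 0.17). Actg2, an actin of the gut wall, read 12.19 ± 0.30 and 11.66 ± 0.52. Enteric nerve and glia genes had 20 of 21 intervals within 2-fold (95.2%, median -0.10) and squamous epithelium 19 of 19 (100%, median -0.17). Mast cells and eosinophils had 16 of 17 (94.1%, median -0.16) and adipocytes 12 of 15 (80%, median -0.04). Apart from the lower share of adipocytes, these shares do not set the lists apart from all genes. Genes up to the 40th percentile of signal had a median of -0.11. The posterior Hox genes, which mark the distal end of the colon, had 5 of 10 above 0 and a median of -0.01 (-0.04 to 0.08). Single members varied by mouse: Hoxb13 read 10.13, 9.35, 6.89, 8.49 and 9.09 in recipients and 6.86, 6.39, 7.43, 9.65 and 9.21 in conventional mice, and its difference of 0.88 ranged from 0.50 without WT56 to 1.36 without WT639. Hoxd13 stood at 6.86 in recipient WT880 against 5.50 to 6.03 in the other recipients. Untreated mice read 10.98 ± 0.41 for Hoxb13. Hoxa5, of the anterior set, read 6.68 ± 0.07 and 7.07 ± 0.34, and 22 of 25 anterior and proximal genes were below 0 (median -0.19). The 12% of this list above 0 is near the 15.1% among dim genes, up to the 40th percentile of signal, whose median was -0.11. No source used here says which stretch of colon was sampled, and its part in these values was not tested.

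A gene tied to substrain separated the groups without overlap. Nnt, the mitochondrial nicotinamide nucleotide transhydrogenase, is partly deleted in C57BL/6J mice and intact in C57BL/6N. It read 7.52, 6.96, 7.28, 7.62 and 7.22 in recipients and 8.49, 8.23, 7.90, 8.26 and 8.34 in conventional mice, without overlap. The difference was -0.92 (SE 0.15, interval -1.25 to -0.60, adjusted p = 0.285). It passed after quantile normalization (-1.04, adjusted p = 0.0393) and with all 35 arrays in 1 model (adjusted p = 0.000554). Untreated wild-type mice read 8.41 to 8.84. Every other group of the series, axenic or transgenic, read lower, from 6.68 to 7.67. Wdfy1, also on the list of substrain-linked genes, read 6.70 to 6.98 in recipients and 7.10 to 7.49 in conventional mice, a difference of -0.44 (SE 0.10, adjusted p = 0.43). The labels give C57BL/6N for all mice; whether the colonies differ in substrain was not tested.

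The genes with the smallest p outside these lists were picked after their values were seen. Bcl3, a partner of NF-kappa-B, read 9.92 to 10.42 in recipients and 8.77 to 9.47 in conventional mice, a difference of 1.00 (SE 0.15, adjusted p = 0.285). Alg3, an enzyme of N-glycan assembly, read 9.63 to 10.15 against 8.95 to 9.29. Vopp1 read 8.19 to 8.85 against 7.03 to 7.69. Kcnn4, a potassium channel of the epithelium, read 8.86 to 9.32 against 8.03 to 8.58, a difference of 0.84 (adjusted p = 0.303). In all 4 genes the groups did not overlap. With all 35 arrays in 1 model Vopp1 (adjusted p = 0.00213), Kcnn4 (0.00989) and Bcl3 (0.0413) passed, as did Reg3a (0.00811), Ephb3 (0.0178), Hspa1a (0.0388) and Kcnq1 (0.0313) among the other genes named here, beside Nnt. Alg3 passed without recipient WT880 (adjusted p = 0.0267).

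Gene sets chosen in mice outside the comparison bear on the same question. In transgenic mice DSS raised 148 genes at least 2-fold against untreated transgenic mice (called at adjusted p under 0.05; 0.743% of all genes). In these 148 genes the wild-type recipients stood a median of 0.48 above the conventional wild-type mice, 135 were above 0, 0 passed and 43 (29.1%) had intervals within 2-fold. Of the 15 genes (0.0753%) that DSS lowered at least 2-fold in transgenic mice 12 were below 0, with a median of -0.21. In 52 genes that were called at least 2-fold higher with transgenic flora than in axenic controls (0.261% of all genes), the median was 0.44, 47 were above 0, 0 passed and 23 (44.2%) lay within 2-fold. The shares above 0 were 91.2% and 90.4% in these sets, against 47.5% over all genes but 89.5% over the genes above the 80th percentile of signal. The shares alone thus do not set these genes apart from bright genes. Their medians of 0.48 (quartiles 0.32 and 0.67) and 0.44 (0.22 and 0.83) were above the 0.23 (0.11 and 0.36) of bright genes. Unadjusted p was under 0.05 (limma) for 38 of the 148 and 11 of the 52 genes, against 8.21% of all genes. Only 2 genes (0.01%) were called at least 2-fold lower with transgenic flora. The spread between mice was wide in both sets: their median standard error was 0.316 and 0.309, against 0.142 over all genes.

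The transgenic pair differs from the wild-type pair in design: its conventional mice carry the Reg3a transgene, while its recipients are axenic mice given flora of transgenic donors. Its gap and the interaction therefore hold the transgene of the host as well, which cannot be told apart from the flora and the rearing. Between recipients of transgenic flora and conventional transgenic mice, both given DSS, 1350 genes passed (6.78%), 204 higher and 1146 lower in recipients, and 1532 (7.70%) did not overlap. Adding the level of posterior Hox genes as a covariate left 374, and leaving out 1 mouse at a time gave 620 to 1961, with 620 and 884 without conventional mice TG48 and TG46 and 821 and 722 without recipients TG713 and TG632. Saa3 was 4.21 higher in those recipients (adjusted p = 0.00575), Lcn2 3.91 (0.007) and S100a8 3.95 (0.012), where conventional transgenic mice read 7.79 ± 1.71, 8.40 ± 1.69 and 6.42 ± 1.78. Cxcl13, which draws B cells, was 2.53 higher (0.00228) and Igha 2.11 higher (0.00905). Aqp8 was 2.24 lower, from 11.58 ± 0.54 to 9.34 ± 0.65 (0.00367), and Mptx1 2.30 lower (0.0218). In the wild-type pair the same genes differed by 0.31, 0.38, 0.97, 0.65, 1.45, 0.69 and 0.16, none of them passing. Over the lists, 15 of 41 absorptive genes, 12 of 20 tight junction genes and 11 of 20 smooth muscle genes passed as lower in recipients of transgenic flora, against 5.76% of all genes, and 8 of 19 neutrophil genes as higher, against 1.02%. Goblet cell genes passed as lower in 9 of 22 cases and detoxification genes in 17 of 56.

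Whether the 2 gaps differed was tested directly. The test of the gap in the wild-type pair minus the gap in the transgenic pair called 15 genes (0.0753%), all with the wild-type gap above the transgenic one. The inflammatory genes were not among them: the differences of the gaps were -3.89 for Saa3 (adjusted p = 0.101), -3.53 for Lcn2 (0.118) and -2.98 for S100a8 (0.199). Nxpe5 led, at 3.49 (SE 0.23, adjusted p = 6.44e-08). It read 9.75 to 10.28 in conventional transgenic mice with DSS and 9.76 ± 0.73 in untreated ones, but 5.89 ± 0.17 in untreated wild-type, 6.30 ± 0.29 in conventional wild-type DSS and 6.44 ± 0.35 in wild-type-flora recipients. The conventional transgenic mice were thus the group that stood apart in this gene, with or without DSS. Flnc, a filamin of muscle, differed by 2.02 (SE 0.31, adjusted p = 0.011), and the glutathione transferase Gstm3 by 1.92 (SE 0.34, adjusted p = 0.0297).

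Tst, a mitochondrial sulfur transferase that detoxifies cyanide and sulfide, differed by 1.82 (SE 0.27, adjusted p = 0.0088). It read 10.01 ± 0.43 in wild-type-flora recipients and 9.20 ± 0.34 in conventional wild-type mice, but 9.08 ± 0.23 in transgenic-flora recipients and 10.09 ± 0.25 in conventional transgenic mice. Gstm3 crossed over in the same way, at 9.78 ± 0.45, 9.07 ± 0.36, 8.97 ± 0.42 and 10.18 ± 0.37 in the same order of groups. The potassium channels Kcnn4 and Kcnq1 differed by 1.23 (adjusted p = 0.0088) and 1.06 (0.011), and Ephb3 by 1.1 (0.0088). For 12 of the 15 genes the transgenic gap itself passed as lower, and for none did the wild-type gap pass. The count of 15 rested on single mice: it was 1011 without conventional wild-type mouse WT52, 491 without transgenic-flora recipient TG749, 156 and 109 without wild-type-flora recipients WT793 and WT639, and 61 and 32 without conventional mice WT53 and WT55. It was 9 without WT56, WT597, WT098, TG632 or TG446, each left out alone. It was 1224 without the mice with high Xist and 1 with the posterior Hox covariate, and that gene was Nxpe5.

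**Figure D5:**
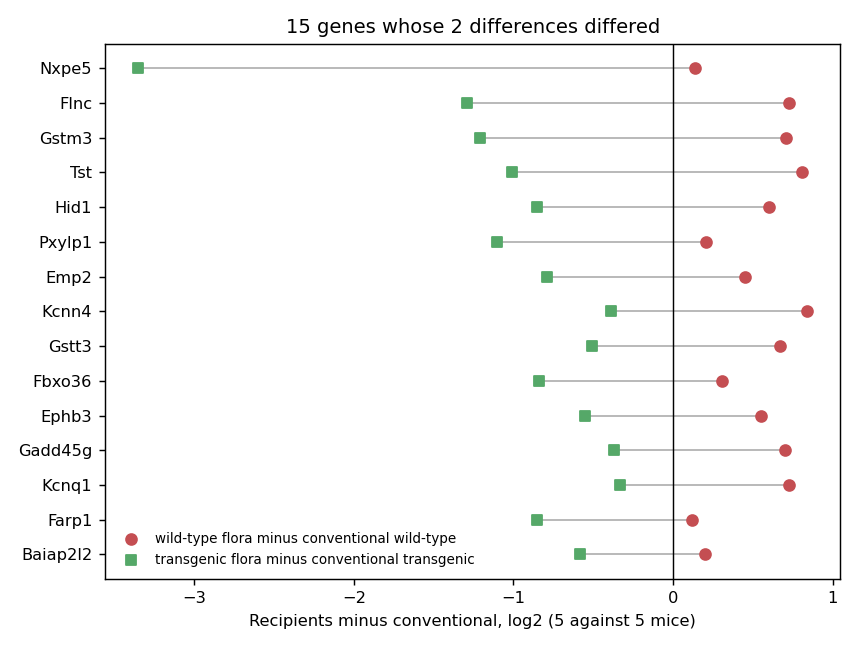
Recipients minus conventional mice (log2, 5 against 5 mice) in the wild-type pair (circles) and the transgenic pair (squares) for the 15 genes whose 2 differences differed at adjusted p under 0.05. In all 15 the circle lies above 0 and the square below 0, and Nxpe5 has the widest distance, 3.49.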

How the data were processed

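Colon RNA of 35 mice, 5 in each of 7 groups, was hybridised to 1 array per mouse. The authors deposited log2 signals normalised by robust multi-array averaging (RMA) with Affymetrix Expression Console 1.1, per the submitters' processing notes; the background and normalisation settings and the annotation build are not stated in the sources used here. RMA compresses fold changes of dim genes, and its normalisation between arrays can hide a shift shared by most genes.

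Of 28090 probe sets 21639 carried 1 gene symbol in the platform annotation, 1539 several and 4912 none listed, and 19908 genes were kept, each by the probe set with the highest mean over all 35 arrays. Of these 19826 matched a GRCm38.p6 gene table. No filter on low values was applied. Limma 3.58.1 (lmFit and eBayes, R 4.3.3) compared the 5 recipients with the 5 conventional mice, fitted on those 10 arrays, two-sided, with Benjamini-Hochberg adjustment over 19908 genes. Calls were made below an adjusted p of 0.05. Intervals are 95% intervals of the same model. The difference between the wild-type and the transgenic gap was an interaction term over 4 groups. The number of arrays limits the precision. The code was tested on simulated data.

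Genes are named from 42 lists (879 measured genes; 91 names had no probe set of their own here). The rule named up to 4 members of smallest p in each list, the 15 largest called rises and falls without overlap (there were 0), and the best-known genes of this colitis, such as Reg3g, Saa3, Il1b, Duox2, Igha and Lgr5; genes named outside it are marked as picked after their values were seen. The comparison, its members and the lists were chosen with earlier results of these data known. Alternatives were other normalisations, variance models, array sets, probe set rules, covariates and leaving out each mouse; the pancreas covariate and leaving out mice WT55 and WT56 were added after seeing the data. Python 3.11.15, numpy 2.4.6, pandas 2.3.3, scipy 1.17.1 and matplotlib 3.10.9 were used.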

Additional observations from a re-analysis of the deposited data

Results flagged for a closer look

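In groups of 5 mice, chance alone sets about 1 in 20 groups apart by the measure used here, the gap of the highest or lowest mouse to its neighbour as a share of the group's range. Of 214 gene and group pairs, 18 stood apart. Recipient WT880 accounted for 4: Mptx1 at 9.70 (5.56 to 5.77 in the other recipients), Cela3b at 6.45 (10.08 to 11.05), Pnliprp1 at 5.40 (9.39 to 10.45) and Reg3a at 5.10 (9.30 to 9.84). Recipient WT639 was low in Nox1 at 9.37 (10.25 to 10.48). Recipient WT793 was low in Saa1 at 8.38 (9.33 to 9.56) and in Muc2 at 13.42 (13.76 to 13.88), and recipient WT597 in Derl3 at 7.24 (7.45 to 7.49).

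Conventional mouse WT55 accounted for 8. It was high in Il6 at 7.63 (4.41 to 5.04 in the other conventional mice), Angptl4 at 8.15 (6.75 to 7.08), Cela3b at 7.82 (6.03 to 6.27), Clps at 9.68 (7.86 to 8.31) and Pnliprp1 at 6.89 (5.04 to 5.25). It was low in Slc26a3 at 9.98 (11.16 to 11.62), Fer1l6 at 6.56 (8.12 to 8.58) and Hoxa5 at 6.48 (7.12 to 7.36). Mouse WT56 was low in Nos2 at 7.46 (9.90 to 10.52), and mouse WT52 high in Per1 at 7.81 (7.57 to 7.62).

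For 15 genes the recipient-minus-conventional difference was not the same in the wild-type and the transgenic pair (limma interaction term, adjusted p under 0.05). The differences between the pairs were 3.49 for Nxpe5, 2.02 for Flnc, 1.92 for Gstm3, 1.82 for Tst, 1.45 for Hid1, 1.31 for Pxylp1, 1.24 for Emp2 and 1.23 for Kcnn4. They were 1.18 for Gstt3, 1.15 for Fbxo36, 1.1 for Ephb3, 1.07 for Gadd45g, 1.06 for Kcnq1, 0.97 for Farp1 and 0.79 for Baiap2l2.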

How the results depend on the processing

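No paired analysis was possible because the groups share no replicate numbers. The count of called genes in the wild-type pair, 0 as reported, was 1 after quantile normalization (Nnt), 16 with all 35 arrays in 1 model, 3 with the 25 DSS arrays, 1176 with array weights, 1 with within-array SD as a covariate (Clcn4), and 0 to 21 leaving out 1 mouse at a time. It was 0 under the other alternatives run. The count of intervals within 2-fold, 18704, was 10872 of the genes above the 40th percentile of signal, where fewer genes were tested, and 17999 to 19002 leaving out 1 mouse. It was 16965 (85.2%) without the mice with high Xist, 17096 (85.9%) with Xist as a covariate and 14753 (74.1%) with the pancreas covariate. In these Xist settings 3861 and 4213 genes had an unadjusted p under 0.05 (limma), against 1634. Their smallest adjusted p was 0.086 and 0.0513, against 0.285. The count of 1350 in the transgenic pair was 374 with the posterior Hox covariate, 455 without the mice with high Xist and 620 to 1961 leaving out 1 mouse. The interaction count of 15 was 579 with all 35 arrays, 1 with the posterior Hox covariate, 1224 without the mice with high Xist and 9 to 1011 leaving out 1 mouse. The cause of these shifts was not tested.

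Of 107 named genes, 51 kept their direction and side of the threshold with array weights, 91 with the pancreas covariate and 99 with all 35 arrays. Reversed differences were as follows. With array weights Reg3b was 0.45, Reg3g 0.21, Mptx1 -1.08, Duox2 -0.09, Tnf -0.17, Il17a 0.04, Aqp8 -0.15, Car4 -0.04 and Hoxb13 -0.74. After quantile normalization Duox2 was -0.16, Il17a 0.08 and Slc26a3 -0.08, and Il17a was 0.01 after median centring. With the posterior Hox covariate Mptx1 was -0.36 and Il17a 0.01, and with the smooth muscle covariate Il17a was 0.01 and Slc26a3 -0.02. With within-array SD as a covariate Duox2 was -0.34, Tnf -0.16, Il17a 0.09 and Slc26a3 -0.14. With Xist as a covariate, and likewise without the mice with high Xist, Saa1 was 0.52, Saa3 -0.02, Lcn2 -0.02 and S100a9 -0.16. Without mice WT55 and WT56, chosen after seeing the data, Mptx1 was -0.16, Clca4b -0.05, Duox2 -0.34, Tnf -0.19, Il17a 0.10, Slc26a3 -0.09 and Aqp8 -0.20. With the pancreas covariate, also chosen after seeing the data, Saa1 was 0.54, Saa3 -1.92, Lcn2 -1.83, Hp -1.13, S100a8 -1.54, S100a9 -1.89, Il1b -0.59, Il6 -0.82, Tnf -0.15, Ptgs2 -0.37, Cxcl2 -0.39, Cxcl10 -0.18, Cxcl13 -0.01, Itgam -0.21, Il1r2 -0.28 and Nxpe5 -0.11. Leaving out 1 mouse at a time turned the sign of Duox2 (-0.16 to 0.24), Il17a (-0.07 to 0.09), Hoxd13 (-0.04 to 0.30), Mptx1 (-0.65 to 0.49), Saa1 (-0.35 to 0.29), Saa3 (-0.05 to 0.93), Lcn2 (-0.04 to 0.99), Tnf (-0.11 to 0.18), Slc26a3 (-0.15 to 0.26) and Nxpe5 (-0.01 to 0.25). None of these genes was called in the main comparison. The pancreas covariate nearly follows the group, so differences under it are imprecise, with a median standard error of 0.226.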
